A study of Mus musculus with 12 samples.

Results

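The mitochondrial carrier family Slc25 was examined in the mouse left ventricle through every table entry whose gene symbol is Slc25a followed by a number. This rule, which uses no measured value, selected 47 of 21669 transcript names, 1 name for each gene. Carriers of this family are small proteins of the inner mitochondrial membrane that exchange metabolites, nucleotides and cofactors between the cytosol and the matrix. They share a fold of tandem repeats, each with a pair of membrane helices and a signature motif, and a few members sit in peroxisomes or in the outer mitochondrial membrane. In heart muscle, the ADP/ATP and phosphate carriers feed and drain ATP synthase, the malate-aspartate shuttle brings in reducing equivalents, and the carnitine-acylcarnitine carrier brings in fatty acids.

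Footprints and RNA were measured in left ventricular tissue of adult hearts from wild-type mice (WT) and from mice lacking Rpl3l (Rpl3l-/-, written KO). Rpl3l is a paralog of Rpl3, which encodes a protein of the large ribosomal subunit, and is expressed mainly in heart and skeletal muscle. Ribosome profiling (RPF) sequences the mRNA fragments that ribosomes shield from RNase I, and RNA sequencing of polyadenylated RNA from undigested lysate gives the mRNA level. Each genotype had 3 libraries per assay, 12 in 4 groups, and all lysates were prepared with cycloheximide, which arrests elongating ribosomes. The labels call the 3 samples of a group biological replicates and give no age beyond adult, no strain and no further treatment. The tissue is a bulk homogenate of a germline mutant, so fewer cells of a type and less RNA per cell cannot be told apart. The comparisons ask which carriers differ between the genotypes in RNA, in footprints, or in translational efficiency (TE), which sets footprints against RNA.

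Libraries held between 3827862 and 8459004 counts. Transcripts of the mitochondrial genome took 49.8% to 58.2% of the RNA counts and 2.28% to 5.22% of the RPF counts. Values below are CPM, counts scaled to a common library size with TMM factors, and 3 counts, used as the detection floor, correspond to 0.304 to 0.449 CPM in RNA and 0.404 to 0.791 CPM in RPF, by counting error only. Rpl3l stood at 349 to 428 CPM in WT RNA and 40.8 to 46.4 CPM in KO RNA, and at 193 to 260 CPM in WT RPF and 4.40 to 12.8 CPM in KO RPF, so every library matched its label. Ventricular cardiomyocyte markers summed to 44600 CPM or more in every library, and skeletal muscle markers to 1.68 to 5.52 CPM. Of the 9 marker lists, that of macrophages separated the genotypes in both assays when summed. The sum was 153 to 161 CPM in WT and 132 to 145 CPM in KO RNA. In RPF it was 429 to 496 CPM in WT and 385 to 419 CPM in KO. Of its 5 genes, only C1qa separated in RNA (64.1 to 70.5 CPM in WT, 55.9 to 56.3 CPM in KO). Only Cd68 did so in RPF (37.6 to 41.9 CPM in WT, 28.9 to 32.5 CPM in KO). The part of this list in the results below was not tested. Some libraries stood apart without regard to genotype. In RNA, the first principal component (46.2% of the variance) set WT 3, KO 1 and KO 3 against WT 1, WT 2 and KO 2. In RPF, it (38.2%) set WT 1 apart from the other 5 libraries.

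Of the 47 carriers, 23 had enough counts for testing in both assays, 13 in RPF only, 1 in RNA only (Slc25a47), and 10 in neither. Those 10 were Slc25a2, Slc25a18, Slc25a21, Slc25a27, Slc25a31, Slc25a41, Slc25a43, Slc25a48, Slc25a53 and Slc25a54. They include the testis ADP/ATP carrier Slc25a31, and Slc25a41 and Slc25a54 had 0 counts in all 12 libraries, which allows up to the floors above. Slc25a27, which resembles uncoupling proteins, had 2 to 8 RNA and 0 to 6 RPF counts per library. Slc25a48 had 11 and 9 RPF counts in WT 1 and WT 2 and 0 to 2 in the other RPF libraries, and Slc25a43 had 14 in WT 1 and 0 to 4 in the others. Slc25a2, Slc25a18, Slc25a21, Slc25a31 and Slc25a53 had at most 6 counts in any library. All 47 names matched protein-coding transcripts of GENCODE M21 (GRCm38), from which the positions and lengths below are taken.

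ADP/ATP exchange is the role of the most abundant carrier. Slc25a4 (ENSMUSG00000031633.4, chromosome 8 from 46206797 to 46211284, minus strand, 4 exons), the heart and muscle ADP/ATP carrier, also called ANT1, led the family in both assays. Its close paralog Slc25a5 (ENSMUSG00000016319.3, chromosome X from 36795651 to 36798807, plus strand, 4 exons), the broadly expressed carrier ANT2, has a coding sequence 77.5% identical to it. The pair is shown at its most and least similar 28-base windows, about the length of a footprint, because the counts of both genes depend on telling such fragments apart. Capitals mark the bases that differ, and positions count from the first base of the start codon.
Slc25a4, bases 85 to 112: atcgagagggtcaaActgctgctgcagg
Slc25a5, bases 85 to 112: atcgagagggtcaaGctgctgctgcagg
Slc25a4, bases 429 to 456: CgaCgtgggcaaGgGATCTTcCCaGCgA
Slc25a5, bases 429 to 456: TgaTgtgggcaaAgCTGGAGcTGaAAgG
The first window spans an exon junction in each gene (GRCm38, chromosome 8 from 46209508 to 46210838, minus strand, and chromosome X from 36795815 to 36796843, plus strand) and holds 1 mismatch. The second lies within an exon (chromosome 8 from 46209164 to 46209191 and chromosome X from 36797160 to 36797187) and holds 14. Of the 870 windows along the pair, 0 were identical, 35 differed at 1 or 2 bases and 835 at more, with a median of 6 mismatches.

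Slc25a4 RPF levels were 8947, 10374 and 8397 CPM in WT libraries 1 to 3 and 8011, 7107 and 7891 CPM in KO libraries 1 to 3. Every KO library lay below every WT library, and the distance between the lowest WT and the highest KO library was smaller than the spread within either group. The mean was 9240 ± 1020 CPM for WT and 7669 ± 491 CPM for KO (SD, n = 3 each). As a log2 fold change from WT to KO this was -0.27 (SE 0.10), with an unadjusted p of 0.019 and an adjusted p of 0.834 in edgeR's quasi-likelihood test with Benjamini-Hochberg adjustment. The change thus did not pass over all genes, and the unadjusted p lost its side of 0.05 without WT 2 or without KO 2. Slc25a4 RNA was 10331, 7881 and 7343 CPM in WT and 7624, 8067 and 8010 CPM in KO, where the groups overlapped and WT 1 was the highest. The RNA log2 fold change was -0.11 (SE 0.19), and it was 0.05 without WT 1.

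Slc25a5 RPF levels were 600.0, 628 and 561 CPM in WT and 551, 509 and 534 CPM in KO. Here too every KO library lay below every WT library, by a narrow margin between WT 3 and KO 1, and the log2 fold change was -0.17 (SE 0.12, adjusted p = 0.860 in edgeR's quasi-likelihood test). Slc25a5 RNA was 114, 96.4 and 127 CPM in WT and 109.9, 71.0 and 114 CPM in KO, with the lowest value in KO 2 and groups that overlapped. Reads of Slc25a5 are less certain than those of Slc25a4. Of the 870 windows of its coding sequence, 87.5% also occur in transcripts of 13 other annotated genes, among them the processed pseudogenes Gm5560, Gm5529 and Gm5256, whereas 0 of the 870 windows of Slc25a4 occur elsewhere.

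The phosphate carrier Slc25a3 (chromosome 10 from 91116574 to 91124059, minus strand), which imports the phosphate used by ATP synthase, was the second carrier by level in both assays. Its RPF levels were 2323, 2199 and 2094 CPM in WT and 2206, 2398 and 2124 CPM in KO, and its RNA levels 1177, 905 and 1206 CPM in WT and 1193, 1001 and 1087 CPM in KO. The genotypes overlapped in both, with log2 fold changes of 0.02 (SE 0.10) in RPF and -0.00 (SE 0.18) in RNA. Of its coding windows, 12.4% occur in processed pseudogenes.

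Slc25a4 alone set most of the family's total. The family took 1.45%, 1.59% and 1.43% of nuclear RPF counts in WT and 1.38%, 1.26% and 1.34% in KO, so that KO libraries were all lower. Without Slc25a4 the same share lay between 0.514% and 0.546% in all 6 RPF libraries, and the genotypes overlapped. In RNA the family took 2.30%, 2.01% and 2.21% of nuclear counts in WT and 2.23%, 2.00% and 2.35% in KO. Without Slc25a4 the RNA share was 0.418%, 0.399% and 0.380% in WT 3, KO 1 and KO 3, and 0.307%, 0.292% and 0.292% in WT 1, WT 2 and KO 2, the same grouping as the first principal component. The largest part of this remainder was Slc25a3, at 9.81% to 13.3% of the family's RNA counts. These are shares of raw counts. In CPM, Slc25a3 RNA did not follow the grouping, as WT 1 (1177 CPM) lay above KO 3 (1087 CPM). Slc25a4 made up 57.2% to 66.3% of the family's RPF counts and 81.1% to 86.7% of its RNA counts.

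Levels of different carriers were compared per kilobase, of coding sequence for RPF and of transcript for RNA. In WT RPF the order was Slc25a4 (10335 ± 1141 CPM per kb), Slc25a3 (2059 ± 107), Slc25a11 (962 ± 28.4), Slc25a5 (667 ± 38.0), Slc25a20 (312 ± 28), Slc25a12 (224 ± 23.7) and Slc25a13 (126 ± 7.07; SD, n = 3 each). Neighbours in this order were separated by more than their SDs. Slc25a34 (68.9 ± 12.8) and Slc25a42 (66.4 ± 4.77) followed and were not. In WT RNA the order was Slc25a4 (4425 ± 827 CPM per kb), Slc25a3 (680 ± 103), Slc25a5 (90.9 ± 12.5), Slc25a39 (58.6 ± 8.97) and Slc25a11 (37.8 ± 7.64). Slc25a23, Slc25a28, Slc25a33, Slc25a26 and Slc25a20 came next, at 13.1 down to 6.66 CPM per kb. The shuttle carrier Slc25a11 was thus near the top of both orders. Slc25a39 and Slc25a23 ranked higher in RNA than in RPF, and the shuttle carriers Slc25a12 and Slc25a13 ranked higher in RPF.

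**Figure D1:**
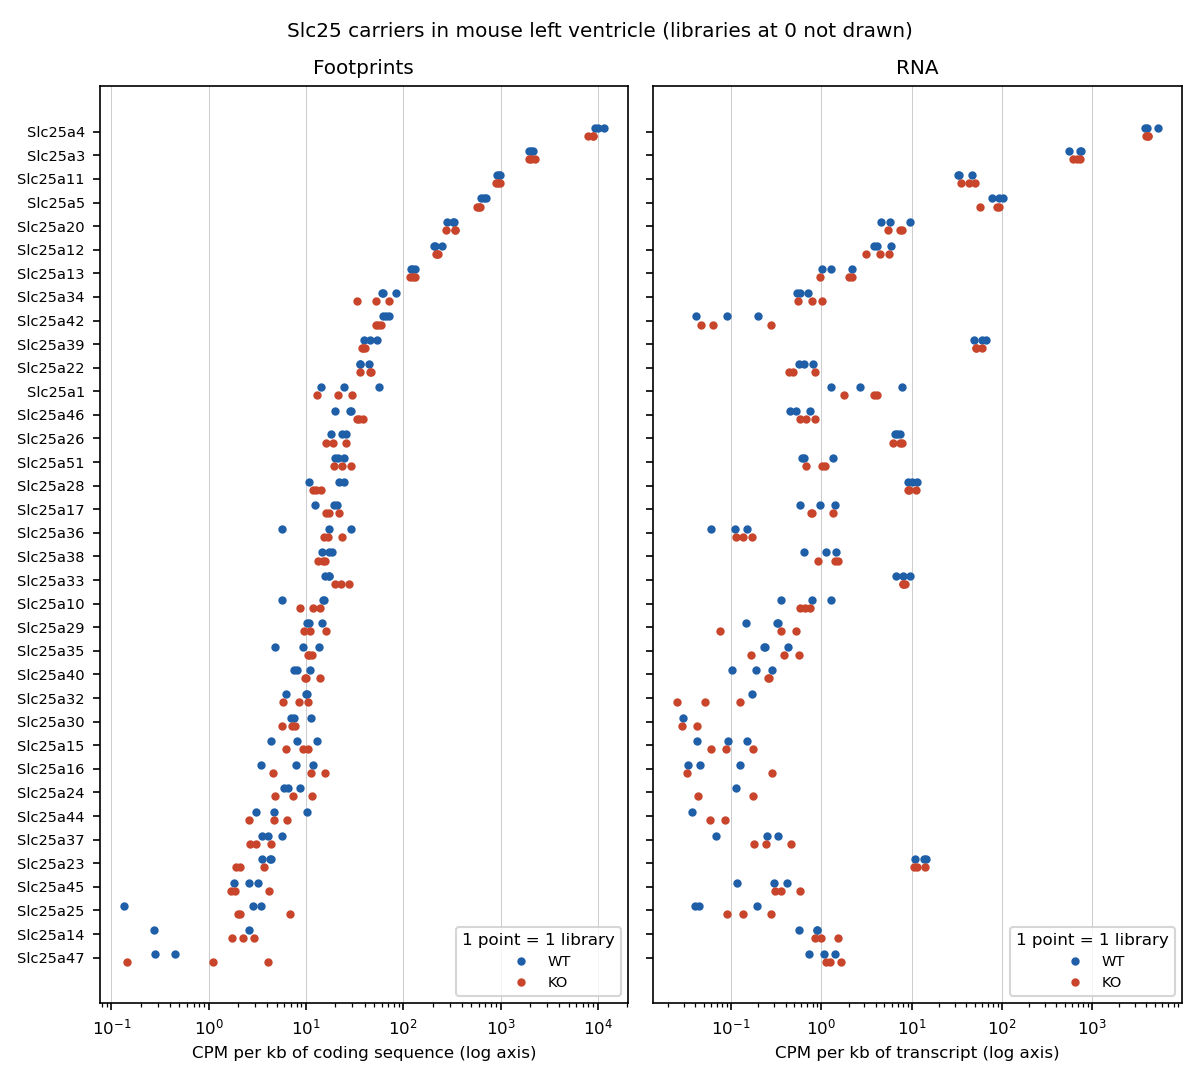
Level of each carrier that passed the count filter in at least 1 assay, in CPM per kb of coding sequence (footprints, left) and of transcript (RNA, right), both on log axes; each point is 1 library, blue for WT and red for KO, and libraries at 0 and 1 of the carriers are not drawn. Slc25a4 leads both panels, at 10335 and 4425 CPM per kb in WT, and Slc25a39 and Slc25a23 lie far to the right in RNA for their place in the footprint order.

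No carrier passed the test between the genotypes after adjustment over all genes. In RNA, edgeR's quasi-likelihood test gave an adjusted p under 0.05 to 0 of the 24 carriers tested, where 0.0119% of all 8379 genes did. At an unadjusted p below 0.05 the RNA count was 0 of 24, beside 2.54% of all genes. In RPF, 0 of 36 had an adjusted p below 0.05, beside 0.00897% of 11153 genes, and 2 of 36 (Slc25a4 and Slc25a46) had an unadjusted p below 0.05, beside 5.96%. In TE, tested as an interaction in a fit of all 12 libraries, the counts were 0 of 23 adjusted, beside 0% of 8044 genes, and 0 of 23 unadjusted, beside 3.73%. DESeq2 called 0 carriers in each comparison as well. The lowest adjusted p among the carriers was 0.999 in RNA, 0.834 in RPF and 0.9997 in TE.

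Directions were evenly divided. In RNA, 13 of 24 carriers were lower in KO and 11 higher, with a median log2 fold change of -0.0048, beside 50.9% lower and a median of -0.0066 over all genes. In RPF, 18 of 36 were lower and 18 higher, with a median of -0.0054, beside 49.8% lower and 0.0014 over all genes. In TE, 11 of 23 were lower, with a median of 0.020, beside 48.3% and 0.013. Carriers that passed the filter are those with enough counts, not the whole family.

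The genotypes separated without overlap in 5 of the 36 carriers tested in RPF. KO lay wholly below WT in 3 (Slc25a4, Slc25a5 and Slc25a42), beside 5.77% of all genes, and wholly above in 2 (Slc25a33 and Slc25a46), beside 6.27%. The counts amount to 8.33% and 5.56% of the carriers tested, near the background shares. In RNA the groups separated in 0 of 24 carriers, beside 4.14% of all genes above and 3.19% below.

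**Figure D2:**
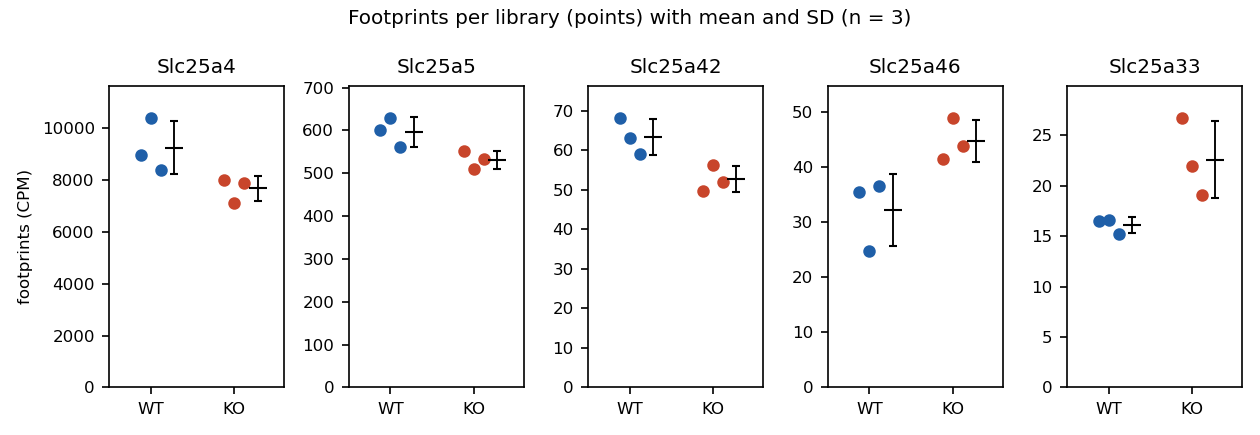
Footprint levels in CPM (axes from 0) of the 5 carriers whose genotypes did not overlap; points are libraries, and the bars beside them give the mean and SD (n = 3). KO lies below WT for Slc25a4, Slc25a5 and Slc25a42, and above WT for Slc25a46 and Slc25a33.

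Slc25a42, a carrier of coenzyme A and adenine nucleotides, had RPF levels of 68.1, 63.0 and 59.0 CPM in WT and 49.7, 56.3 and 52.0 CPM in KO. The log2 fold change was -0.27 (SE 0.16, adjusted p = 0.849 in edgeR's quasi-likelihood test). Its RNA was at or near the floor, with 2, 1 and 6 counts in WT and 6, 1 and 2 in KO, against 239 to 384 footprint counts per library. No RNA or TE test was possible for it under the filter used.

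Slc25a46 (chromosome 18, minus strand), a carrier-like protein of the outer mitochondrial membrane involved in mitochondrial shape, had RPF levels of 35.4, 24.8 and 36.6 CPM in WT and 41.5, 48.8 and 43.8 CPM in KO. WT 2 was the lowest library and KO 2 the highest. The log2 fold change was 0.47 (SE 0.20, unadjusted p = 0.031, adjusted p = 0.834 in edgeR's quasi-likelihood test), and the unadjusted p rose above 0.05 without WT 2, without KO 2 or without KO 3. RNA was low, at 1.95 to 3.69 CPM, with overlapping groups and a log2 fold change of 0.27 (SE 0.31).

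Slc25a33, a carrier of pyrimidine nucleotides, had RPF levels of 16.5, 16.6 and 15.2 CPM in WT and 26.7, 22.0 and 19.1 CPM in KO, where KO 1 was the highest. The log2 fold change was 0.49 (SE 0.23, adjusted p = 0.834 in edgeR's quasi-likelihood test). Its RNA was 12.8, 15.2 and 18.1 CPM in WT and 16.0, 15.0 and 15.1 CPM in KO, and the RNA log2 fold change was -0.01 (SE 0.18). The TE difference, 0.52 (SE 0.27, adjusted p = 0.9997 in edgeR's quasi-likelihood test), was the largest positive one among carriers with a mean of at least 50 counts in each assay. An annotated gene on the opposite strand, Gm13068, overlaps 281 of the 1887 bases of the Slc25a33 transcript, and B930094E09Rik overlaps 374 of the 4371 bases of Slc25a46. Whether strand was used in counting is not given in the sources used here.

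**Figure D3:**
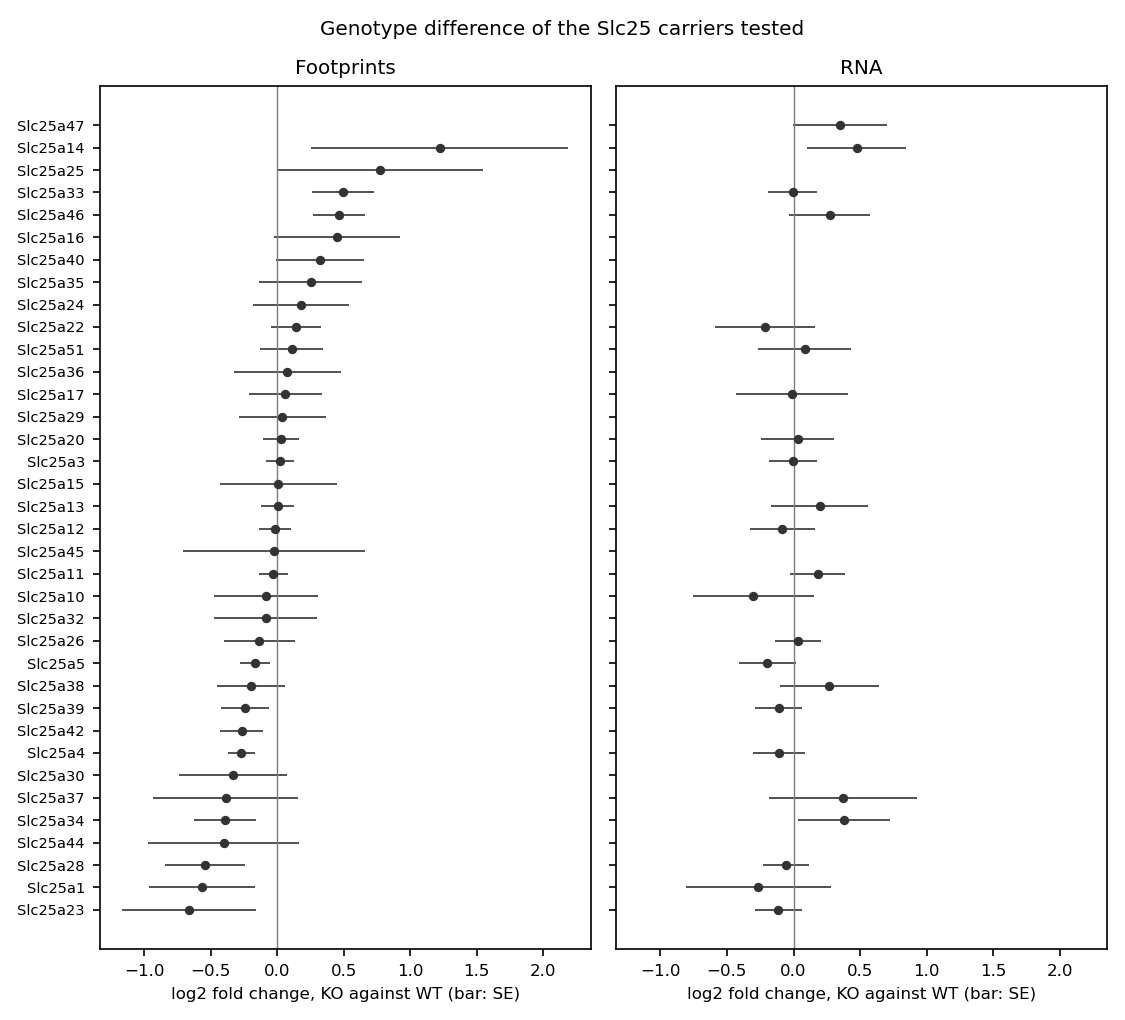
Log2 fold change, KO against WT, of each carrier tested, with its SE as a bar, for footprints (left) and RNA (right); carriers without a point in a panel did not pass the filter there, and 1 carrier is not drawn. Values lie on both sides of 0 in each panel, from -0.66 (Slc25a23) to 1.22 (Slc25a14) in footprints and from -0.30 (Slc25a10) to 0.48 (Slc25a14) in RNA.

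The malate-aspartate shuttle moves reducing equivalents into the matrix through the malate/2-oxoglutarate carrier Slc25a11 and the calcium-regulated aspartate/glutamate carriers Slc25a12 (aralar) and Slc25a13 (citrin). Their footprints had 3 of the 4 lowest coefficients of variation (CV) among carriers with a mean of at least 50 counts, the other being that of Slc25a3. Slc25a11 RPF was 915, 927 and 876 CPM in WT and 940.0, 884 and 841 CPM in KO, a CV of 4.12% over the 6 libraries. Slc25a12 RPF was 510.1, 421 and 435 CPM in WT and 459, 451 and 442 CPM in KO, and Slc25a13 RPF was 244, 250.1 and 271 CPM in WT and 268, 258 and 241 CPM in KO. The log2 fold changes in RPF were -0.03 (SE 0.11), -0.01 (SE 0.12) and 0.00 (SE 0.12) in that order, with overlapping groups in each.

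RNA of the same shuttle carriers varied more, and split by the grouping of the first principal component rather than by genotype. Their RNA counts were also lower. Counting error alone gives CVs of 4.26%, 6.54% and 15.6% in RNA for Slc25a11, Slc25a12 and Slc25a13. In RPF it gives 1.44%, 2.02% and 2.69%. Among 11 carriers with a mean of at least 50 counts in both assays, the RNA CV exceeded the RPF CV in 6. Slc25a11 RNA was 79.7, 86.1 and 73.7 CPM in WT 3, KO 1 and KO 3, and 57.9, 56.4 and 60.2 CPM in WT 1, WT 2 and KO 2, a CV of 18.2%. Slc25a12 RNA was 37.8, 28.1 and 35.4 CPM in the former and 26.1, 24.4 and 19.8 CPM in the latter. Slc25a13 RNA was 6.81, 6.8 and 6.38 CPM in the former and 3.15, 4.03 and 3.0 CPM in the latter. In all, WT 3, KO 1 and KO 3 were the 3 highest RNA libraries for 7 of 24 carriers (Slc25a11, Slc25a12, Slc25a13, Slc25a14, Slc25a20, Slc25a46 and Slc25a51), 29.2%, beside 17.8% of all genes tested. In RPF the libraries with those numbers were the 3 highest for 1 of 36 carriers, beside 3.70% of all genes.

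Slc25a20, the carnitine-acylcarnitine carrier that admits long-chain fatty acids for oxidation, had RPF levels of 253, 299 and 293 CPM in WT and 308, 306 and 249 CPM in KO. Its RNA was 8.17, 10.4 and 17.1 CPM in WT and 13.1, 9.74 and 13.8 CPM in KO. The groups overlapped in both assays, and the log2 fold change was 0.03 in each (SE 0.13 in RPF and 0.27 in RNA). Slc25a29, a related carrier of basic amino acids that has also been described as acylcarnitine-like, had 8.80 to 14.9 CPM in RPF, and its RNA did not pass the filter.

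Slc25a1, the citrate carrier that exports citrate for fatty acid synthesis, had the highest CV over the 6 RPF libraries, 60.0%, of the carriers with a mean of at least 50 counts. Its RPF levels were 13.4, 52.7 and 23.1 CPM in WT and 12, 27.6 and 20.1 CPM in KO, and its RNA levels 2.15, 13.0 and 4.51 CPM in WT and 2.95, 6.89 and 6.38 CPM in KO. WT 2 was the highest library in both assays and KO 2 the next. The RPF log2 fold change was -0.57 (SE 0.40, adjusted p = 0.860 in edgeR's quasi-likelihood test) and became 0.13 without WT 2.

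Summed markers of adipocytes were highest in the same libraries. The 5 listed genes (Adipoq, Plin1, Cidec, Ucp1 and Car3), of which 0 were at 0 in any library, summed to 131, 699 and 231 CPM in WT RPF and 192, 541 and 293 CPM in KO RPF. In RNA they summed to 17.1, 97.0 and 13.7 CPM in WT and 11.2, 85.7 and 17.8 CPM in KO. WT 2 and KO 2 were again the highest in each assay. In RPF this held for each of the 5 genes. In RNA most of the sum in these libraries was Ucp1, at 61.9 CPM in WT 2 and 69.8 CPM in KO 2. Adipoq and Plin1 RNA were also highest there. Cidec RNA was lowest in KO 2 (0.599 CPM), and Car3 RNA in KO 2 (2.55 CPM) lay below WT 1 and WT 3. The part of these markers in the Slc25a1 values was not tested. The dicarboxylate carrier Slc25a10 had RPF levels of 4.94, 12.9 and 13.3 CPM in WT and 7.41, 11.9 and 10.1 CPM in KO, and 5 to 20 RNA counts per library.

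**Figure D4:**
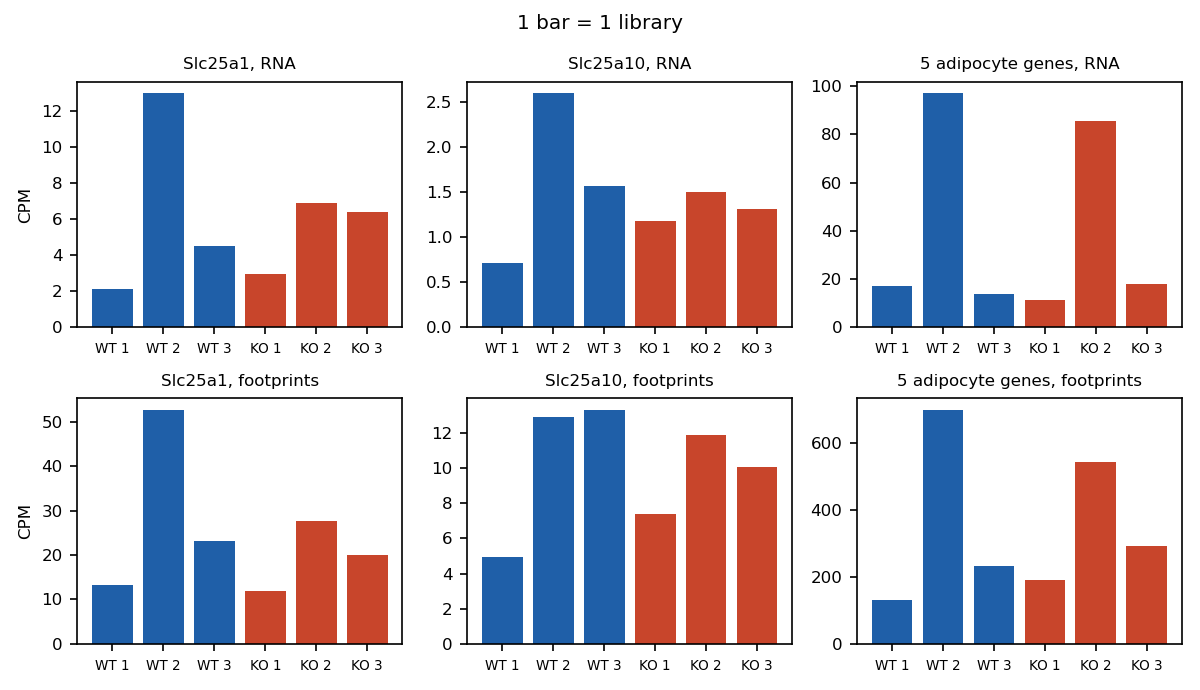
CPM per library (bars, axes from 0; blue WT, red KO) of Slc25a1, Slc25a10 and the sum of 5 adipocyte genes, for RNA (top) and footprints (bottom). WT 2 and KO 2 are the 2 highest bars for Slc25a1 and for the adipocyte sum in both assays, with that sum at 699 and 541 CPM in footprints.

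Cofactor and nucleotide carriers were of low to middle level. All 9 passed the filter in RPF and 5 in RNA. In RPF, 3 were lower and 6 higher in KO, beside 49.8% of all genes lower. The test passed 0 of the 9, beside 0.00897% of all genes. Slc25a26, the carrier of S-adenosylmethionine, the methyl donor, had RPF levels of 19.3, 21.3 and 14.8 CPM in WT and 21.4, 15.5 and 13.2 CPM in KO. RNA of Slc25a26 stayed between 11.8 and 15.1 CPM, and the log2 fold changes were -0.13 (SE 0.27) in RPF and 0.03 (SE 0.18) in RNA. Slc25a16, a carrier linked to coenzyme A, had RPF levels of 7.82, 3.43 and 11.8 CPM in WT and 15.6, 11.3 and 4.61 CPM in KO, and the groups overlapped. Slc25a36, the other carrier of pyrimidine nucleotides, had RPF levels of 26.9, 5.27 and 16.1 CPM in WT and 14.4, 15.5 and 21.8 CPM in KO, with WT libraries at both ends, and 3 to 7 RNA counts per library. Slc25a51, which carries NAD into the matrix, had 17.5 to 26.0 CPM in RPF. The peroxisomal carrier Slc25a17 had 11.5 to 19.9 CPM, and Slc25a32, linked to folate and flavin transport, 5.45 to 9.97 CPM.

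All 4 iron and glutathione carriers were tested in RPF and 0 passed, beside 0.00897% of all genes. Their genotypes overlapped in each, and 3 had a log2 fold change below 0, beside 49.8% of all genes. Slc25a28 (mitoferrin 2), an iron importer, had RPF levels of 11.7, 26.9 and 23.9 CPM in WT and 14.0, 13.0 and 15.7 CPM in KO. WT 1 was the lowest library and the other WT libraries were the highest, so the groups overlapped. The RPF log2 fold change was -0.54 (SE 0.30, adjusted p = 0.835 in edgeR's quasi-likelihood test), while its RNA lay between 14.0 and 17.5 CPM, with a log2 fold change of -0.06 (SE 0.17). The RPF value was -0.83 without WT 1 and -0.32 without WT 2, and the TE value, -0.46 (SE 0.35), was -0.83 and -0.17 without the same libraries.

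Slc25a39, needed for glutathione import into mitochondria, had RPF levels of 49.6, 58.5 and 42.1 CPM in WT and 41.9, 41.1 and 43.8 CPM in KO. Its RNA was 82.7, 100.8 and 113 CPM in WT and 101.0, 86.4 and 86.7 CPM in KO. The groups overlapped in both assays, and the log2 fold changes were -0.24 (SE 0.18) in RPF and -0.11 (SE 0.18) in RNA. Its paralog Slc25a40 had RPF levels of 11.1, 7.64 and 8.25 CPM in WT and 9.84, 10.1 and 14.0 CPM in KO, and 0 to 7 RNA counts per library. Slc25a37 (mitoferrin 1), the iron importer of developing red cells, had RPF levels of 4.11, 5.80 and 3.60 CPM in WT and 3.10, 4.40 and 2.72 CPM in KO, and 2 to 13 RNA counts per library. Erythroid markers summed to 1263 to 5271 CPM in RNA, and of the 6 only Slc4a1 was at 0 in some libraries.

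Slc25a23, Slc25a24 and Slc25a25 are calcium-regulated carriers that exchange ATP-Mg for phosphate. Slc25a23 RNA was 46.4, 48.3 and 37.0 CPM in WT and 36.0, 47.0 and 38.7 CPM in KO, yet its RPF was only 5.97, 5.01 and 6.13 CPM in WT and 2.69, 5.13 and 2.93 CPM in KO. Slc25a24 showed the reverse, with RPF levels of 8.43, 12.4 and 9.31 CPM in WT and 16.3, 10.4 and 6.92 CPM in KO and with 0 to 4 RNA counts per library. Slc25a25 had RPF levels of 0.206, 5.27 and 4.44 CPM in WT and 3.10, 3.23 and 10.7 CPM in KO, and the groups overlapped. The lowest library was WT 1 and the highest KO 3. These levels rest on only 1, 20 and 21 footprint counts in WT and 23, 22 and 51 in KO. Slc25a25 had 1 to 9 RNA counts per library. The RPF log2 fold change was 0.77 (SE 0.77). The log2 fold changes of Slc25a23 were -0.66 (SE 0.50) in RPF and -0.11 (SE 0.18) in RNA.

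Amino acid carriers were tested in RPF for 4 of 6 members, of which 2 were lower and 2 higher in KO, beside 49.8% of all genes lower. The glutamate carrier Slc25a22 had 35.0 to 45.3 CPM in RPF and 1.21 to 2.36 CPM in RNA, and the glycine carrier Slc25a38, needed for heme synthesis, 13.0 to 18.2 CPM in RPF. Slc25a15, an ornithine carrier, had 3.91 to 11.8 CPM in RPF, and Slc25a44, a carrier of branched-chain amino acids, 2.43 to 9.75 CPM. Among the less characterised members, Slc25a34 had RPF levels of 79.8, 58.2 and 59.0 CPM in WT and 32.2, 50.1 and 68.7 CPM in KO. KO 1 was the lowest library and WT 1 the highest, the groups overlapped, and the log2 fold change was -0.39 (SE 0.24, adjusted p = 0.849 in edgeR's quasi-likelihood test). It was -0.15 without KO 1, -0.23 without WT 1 and -0.67 without KO 3. Slc25a35 had 4.32 to 12.4 CPM and Slc25a45 1.47 to 3.56 CPM in RPF, and Slc25a47, tested in RNA only, had 1.15 to 2.63 CPM there. Of the members that resemble uncoupling proteins, Slc25a14 had 0 to 21 RPF counts per library and a log2 fold change of 1.22 (SE 0.97), and Slc25a30 had 4.99 to 9.87 CPM in RPF.

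Within 6 sets of paralogs, the share of each member was taken from CPM per kb of coding sequence. The paralog named first below took the larger share of RNA in every set. Slc25a4 made up 98.3% to 99.1% of the Slc25a4 and Slc25a5 sum in RNA and 93.3% to 94.3% in RPF. Slc25a12 made up 80.5% to 89.2% of its sum with Slc25a13 in RNA and 61.5% to 67.6% in RPF. Slc25a28 made up 87.2% to 98.3% of its sum with Slc25a37 in RNA and 72.6% to 86.1% in RPF. On this scale the RNA and RPF ranges did not overlap in these 3 sets. With RNA taken per kb of transcript, a scale added after seeing the data, the Slc25a12 share of RNA was 67.0% to 80.3%, which overlapped its RPF range, and the ranges of the other 5 sets stayed apart.

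In the other 3 sets the ranges did not overlap either. Slc25a23 made up 97.9% to 99.7% of its sum with Slc25a24 and Slc25a25 in RNA and 12.5% to 41.3% in RPF, where Slc25a24 took 35.0% to 74.4%. Slc25a33 made up 94.2% to 98.2% of its sum with Slc25a36 in RNA and 37.2% to 75.4% in RPF. Slc25a39 made up 99.1% to 100% of its sum with Slc25a40 in RNA and 74.5% to 87.8% in RPF. The minor partner in 4 of these sets shares coding windows with other annotated genes: 87.5% of windows for Slc25a5, 79.5% for Slc25a36 (Gm13217), 41.2% for Slc25a40 (Gm5066) and 21.2% for Slc25a37. For Slc25a13, Slc25a24 and Slc25a25 it was 0%, and the part of shared windows in the shares was not tested. Several partners had few RNA counts per library: 0 to 4 for Slc25a24, 1 to 9 for Slc25a25 and 3 to 7 for Slc25a36. Slc25a40 had 0 to 7 and Slc25a37 2 to 13. The log2 ratio of RPF to RNA varied widely over all genes, with quartiles at 0.36 and 2.89. How often the ranges of other gene pairs stay apart was not computed, so the separation is not shown to be particular to carriers.

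The shares of the genotypes are given with exact two-sided permutation tests, which cannot go below p = 0.1 with 3 against 3 libraries and so could not pass 0.05. Over 12 shares (6 sets in 2 assays) the lowest p was 0.1, and 0.6 after Benjamini-Hochberg adjustment. The RPF share of Slc25a39 was 83.7% ± 3.6 for WT and 77.9% ± 2.9 for KO (SD, n = 3; exact permutation p = 0.1, adjusted 0.6). That of Slc25a4 was 93.9% ± 0.32 for WT and 93.5% ± 0.18 for KO (exact permutation p = 0.1, adjusted 0.6). In both the KO libraries were all below the WT libraries, and these 2 had the lowest p of the 12 shares. The largest difference was in the RPF share of Slc25a23, with overlapping groups. It was 31.9% ± 9.3 for WT and 18.5% ± 8.3 for KO (exact permutation p = 0.2, adjusted 0.6).

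**Figure D5:**
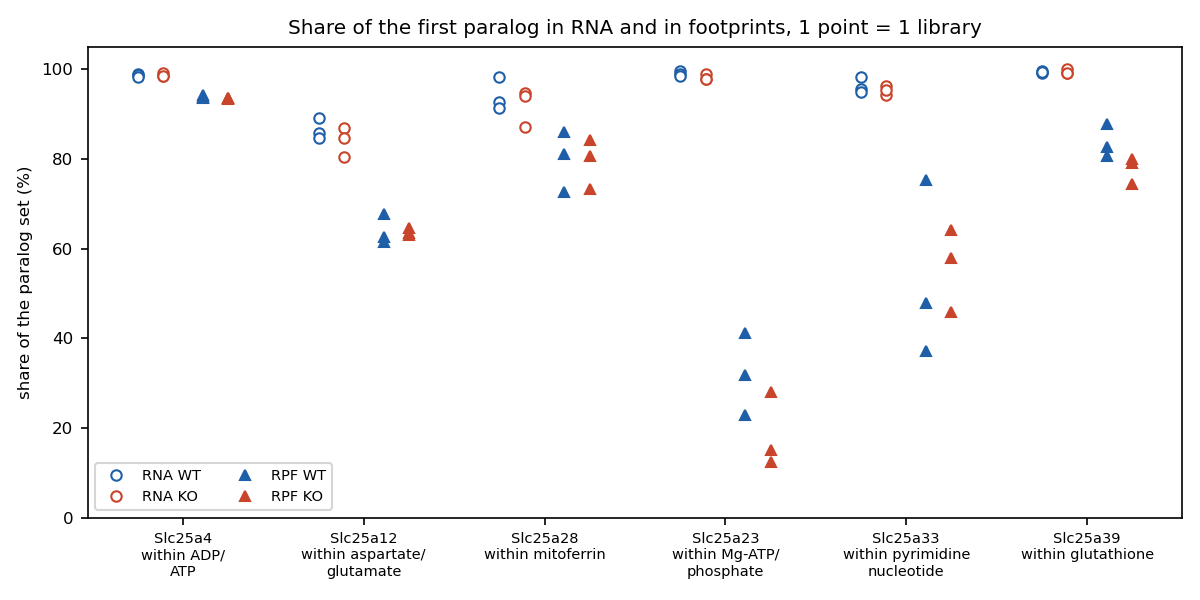
Share in percent of the first paralog in each of 6 sets, per library: open circles for RNA, filled triangles for footprints, blue for WT and red for KO. Shares are per kb of coding sequence in both assays, and on this scale the RNA range lies above the footprint range in every set, as for Slc25a23, at 97.9% to 99.7% against 12.5% to 41.3%; with RNA per kb of transcript the Slc25a12 ranges overlap.

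Footprints relative to RNA were described within WT for the 23 carriers tested in both assays. The measure was the log2 ratio of RPF CPM to RNA CPM, each with 0.5 added, averaged over WT libraries of the same number. Carriers had a median of 2.29 with quartiles at 0.358 and 3.63. All 8044 genes had a median of 1.6 with quartiles at 0.363 and 2.89. In KO the medians were 2.25 and 1.62, and 14 of the 23 carriers lay above the median of all genes in WT. The carriers' median thus stood 0.68 above that of all genes, or 1.05 with RPF per kb of coding sequence over RNA per kb of transcript. Their lower quartile was near that of all genes, so the difference did not run through the whole family. The 13 carriers with enough counts in RPF only are not in this ratio.

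The spread among carriers was wide. Slc25a13 was highest, at 5.69 ± 0.43 (SD, n = 3; percentile 98.3 among all genes), followed by Slc25a34 (4.95 ± 0.38), Slc25a20 (4.57 ± 0.44), Slc25a22 (4.0 ± 0.36), Slc25a12 (3.95 ± 0.40) and Slc25a11 (3.82 ± 0.32). Slc25a23 was lowest, at -2.84 ± 0.33 (percentile 1.31), followed by Slc25a39 at -0.97 ± 0.38. The abundant carriers lay between, with Slc25a4 at 0.13 ± 0.31, Slc25a3 at 1.02 ± 0.24 and Slc25a5 at 2.41 ± 0.28. In the single WT libraries Slc25a13 had ratios of 6.06, 5.79 and 5.22, and Slc25a23 had -2.86, -3.15 and -2.50.

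The length of the annotated 3′ UTR moved with this ratio over all genes. Spearman's rho was 0.37 over 7981 genes and 0.33 over the 23 carriers, given as a description, since genes share libraries and are not replicates. The median log2 ratio was 0.50 for 3′ UTRs up to 332 bases, 1.65 up to 783, 2.34 up to 1692 and 2.30 beyond. Within single libraries, the rho of 3′ UTR length with the RNA level lay between -0.33 and -0.31. With the RPF level it lay between 0.017 and 0.056. Slc25a23, with a 3′ UTR of 1771 bases, had the lowest ratio of the carriers, and Slc25a13, with 930 bases, the highest. The part of 3′ UTR length and of the region the authors counted in the carriers' ratios was not tested.

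For TE, the carriers with at least 50 mean counts in each assay ran from Slc25a28, at -0.46 (SE 0.35), through Slc25a11 (-0.19, SE 0.24), Slc25a4 (-0.14, SE 0.24), Slc25a3 (0.05, SE 0.22), Slc25a5 (0.05, SE 0.25) and Slc25a12 (0.09, SE 0.29) to Slc25a33. Each difference was smaller than 2 SE. A list of 28 other mitochondrial transport genes (pyruvate carriers, porins, sideroflexins, calcium uniporter subunits, uncoupling proteins and others) gave similar counts, with calls for 0 of 23 tested in RNA, 0 of 28 tested in RPF and 0 of 23 tested in TE by edgeR's quasi-likelihood test. At an unadjusted p below 0.05 the counts were 0, 2 (Ucp3 and Vdac3) and 0, beside 2.54%, 5.96% and 3.73% of all genes in RNA, RPF and TE. The median log2 fold changes of the list were -0.07 in RNA, 0.04 in RPF and 0.03 in TE.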

How the data were processed

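The authors deposited 12 tables of raw counts, 1 per library, giving for each named transcript a whole number of reads (6 RPF and 6 RNA libraries, 3 per genotype and assay). The submitters' processing notes name cutadapt 1.18 and Bowtie2 2.4.2. The counting program, genome build, region counted, use of strand and treatment of multiply matching reads are not given in the sources used here. Groups and replicate numbers come from the labels. All genes were fitted together in edgeR 4.0.16 (R 4.3.3): filterByExpr with a minimum count of 10, TMM factors, quasi-likelihood F test, Benjamini-Hochberg adjustment and a threshold of 0.05. TE was the interaction of assay and genotype over 12 libraries. P-values of these fits set the genotype difference, or for TE the interaction, against the spread between the 3 samples of a group. The components used log2 CPM with a prior count of 2. Paralog shares used exact two-sided permutation tests. Sequences, lengths and positions come from GENCODE M21 (GRCm38), which matched 21428 of 21669 names and may not be the authors' annotation. Windows of 28 bases of each coding sequence were searched in the transcripts of all other annotated genes. DESeq2 1.42.0, other scalings and filters, a replicate block and leaving out each library were alternatives. The fits were tested on simulated counts, with 50 genes changed at each fold. At 1.5-fold, 10% (RNA), 4% (RPF) and 2% (TE) of these were called. At 2-fold it was 26%, 46% and 14%, and at 4-fold 86%, 84% and 74%. Most changes of 1.5-fold or 2-fold thus went without a call, so 0 calls do not exclude them. Carriers named with values were those in the paralog sets, the 10 with the highest WT RNA per kb, and, among those with a mean of at least 50 counts, the 5 highest and 5 lowest fold changes per comparison. Others were named to cover the roles. The members, lists and rules were chosen with earlier results of these data known. The values of 1 member are not reported here, though it is included in the counts of members.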

Additional observations from a re-analysis of the deposited data

How the results depend on the processing

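Under all alternatives run, 0 carriers passed the adjusted threshold in RNA, RPF or TE, and the lowest adjusted p of a carrier was 0.568, 0.499 and 0.436, each without WT 3. Over all genes, the number called rose from 1 to 4 in RNA with no filter, and from 1 in RPF to 5 with DESeq2, 60 with no filter and 4 with the replicate block; leaving out a library gave 1 to 2 in RPF. In TE it rose from 0 to 1 with DESeq2. The main fits did not take the replicate numbers to pair the samples. Deviations of same-numbered WT and KO libraries correlated at -0.18, 0.33 and 0.39 in RNA and 0.059, 0.030 and 0.0055 in RPF. In each assay, 3 of 6 libraries correlated best with their own number. Same-numbered RNA and RPF libraries correlated at 0.075, 0.15 and 0.079 in WT and 0.11, 0.11 and 0.12 in KO. The described footprint to RNA ratios did pair these libraries by number, and their SDs rest on that pairing. With the block, 0 carriers were called, in TE as well.

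Some log2 fold changes changed sign, mostly those near 0. In RNA, Slc25a33 was 0.027 with a mean of at least 50 counts and 0.00027 with the block, and Slc25a3 was 0.038 with that filter, 0.0014 without mitochondrial transcripts and 0.0055 with the block. Leaving out each library gave RNA ranges of -0.21 to 0.054 (Slc25a4), -0.12 to 0.070 (Slc25a3), -0.17 to 0.40 (Slc25a20), -0.12 to 0.13 (Slc25a33) and -0.041 to 0.13 (Slc25a26). In RPF it gave -0.92 to 0.13 for Slc25a1, which stood at -0.57 in the main fit and changed sign only without WT 2. In TE it gave -0.31 to 0.0029 (Slc25a39), -0.32 to 0.0066 (Slc25a4), -0.053 to 0.16 (Slc25a3), -0.096 to 0.19 (Slc25a5) and -0.15 to 0.34 (Slc25a12). The carriers' median footprint to RNA ratio stood 0.68 above that of all genes, 1.05 with lengths on both sides, and 0.56 to 0.68 when a library was left out. The cause of these shifts was not tested. The RPF log2 fold change ranged from -0.33 to -0.18 for Slc25a4 and from 0.32 to 0.57 for Slc25a46. Low RNA counts limited what could be tested: 23 of 47 carriers had no RNA test and 11 no RPF test.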
